A study of Mus musculus with 10 samples.

Results

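Rybp, its paralog Yaf2, the E3 ubiquitin ligase genes Ring1 and Rnf2, and the processed copy Rybp-ps were followed through the differentiation of Rybp null mutant and wild type mouse embryonic stem (ES) cells toward the heart lineage. The 5 genes were taken by symbol from a table of 36191 Ensembl gene IDs, and all 5 passed the filter on low counts, which kept 15819 genes. The cells are of a 129x1 x 129S1 strain background. Rybp null and wild type ES cells were sequenced at day 0 in 1 library each, and Rybp null and wild type cultures, labelled as cardiac, were sequenced at day 8 and at day 14 in 2 libraries each, after embryoid bodies had been formed in hanging drops. The labels name neither the kind of null allele nor a cell line or clone, and they do not say whether replicates came from separate cultures, so p-values measure only the spread between these libraries.

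RYBP and YAF2 are closely related zinc finger proteins that bind the RING1 proteins and take part in the variant forms of Polycomb repressive complex 1 (PRC1). The catalytic core of PRC1 is a RING1 protein, either RING1 (also called RING1A) or RNF2 (RING1B), paired with a PCGF protein, and it ubiquitinates histone H2A at developmental genes. RYBP or YAF2 takes the place that a chromobox (CBX) protein holds in the canonical forms, so the 4 protein-coding genes belong to a pair of paralogs on each side of a single contact, and in mouse ES cells RNF2 is known as the main RING1 protein.

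The sequences show how alike the members are, which bears on whether reads can be assigned to each. Rybp-ps, on chromosome 13, is annotated as a processed pseudogene of 681 bases, and over those bases it was 99.3% identical to the coding sequence of Rybp on chromosome 6, with 5 bases that differ and a longest identical run of 269 bases. The 90-base window with the lowest identity holds 2 of the 5, in capitals below, and covers coding bases 92 to 181 of Rybp and bases 90 to 179 of the Rybp-ps transcript. These and the following sequences are from GENCODE vM21 transcripts on GRCm38, written 5′ to 3′ on the gene's strand, and Rybp, Yaf2, Ring1 and Rnf2 are counted from 1 at the first base of the start codon.
Rybp: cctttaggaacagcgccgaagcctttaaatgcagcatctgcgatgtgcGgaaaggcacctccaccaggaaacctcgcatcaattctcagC
Rybp-ps: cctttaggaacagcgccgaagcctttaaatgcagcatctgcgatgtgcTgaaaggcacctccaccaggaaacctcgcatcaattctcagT
Of the 632 windows of 50 bases in Rybp-ps, 423 occur letter for letter in the coding part of Rybp, so a read from there can be placed at either gene. In the transcript scanned for each of Yaf2, Ring1 and Rnf2, no 50-base window occurs in a transcript of another gene. Other transcripts of these genes were not scanned, and Rnf2 shares exon bases with Trmt1l, as given below.

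Yaf2, on chromosome 15, was 70.9% identical to Rybp over 540 aligned coding bases. Their most alike 90 bases, with 14 differences in capitals, encode part of the zinc finger and cover coding bases 67 to 156 of Rybp and 61 to 150 of Yaf2.
Rybp: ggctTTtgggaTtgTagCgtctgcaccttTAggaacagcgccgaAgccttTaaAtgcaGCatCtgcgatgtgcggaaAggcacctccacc
Yaf2: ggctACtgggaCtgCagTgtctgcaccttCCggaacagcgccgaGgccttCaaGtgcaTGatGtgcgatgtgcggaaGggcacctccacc
Ring1, on chromosome 17, and Rnf2, on chromosome 1, were 66.0% identical over 996 aligned coding bases. Their most alike 90 bases, with 20 differences in capitals, encode part of the RING finger that gives the ligase its name, and cover coding bases 184 to 273 of Ring1 and 193 to 282 of Rnf2.
Ring1: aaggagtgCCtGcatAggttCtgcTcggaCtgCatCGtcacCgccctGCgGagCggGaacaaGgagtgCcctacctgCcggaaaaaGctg
Rnf2: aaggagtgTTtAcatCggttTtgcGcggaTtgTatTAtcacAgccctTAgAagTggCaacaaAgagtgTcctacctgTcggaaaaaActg
The longest identical run was 23 bases between Rybp and Yaf2 and 14 bases between Ring1 and Rnf2, so neither pair of paralogs shares sequence as Rybp and Rybp-ps do.

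The libraries were shallow, with totals between 3028153 and 6890792 counts. Levels are given in CPM, the count of a gene relative to its library, with library sizes scaled by the trimmed mean of M values (TMM). The labelled cell types were checked by sums over marker lists, not all of which are given here. The 7 pluripotency genes summed to 10000 CPM in null ES cells and 5720 CPM in wild type ES cells, to 59.7 and 120 CPM in null cultures and 28.4 and 41.4 CPM in wild type cultures at day 8, and to 29.9 and 61.7 CPM in null cultures and 38.3 and 50.8 CPM in wild type cultures at day 14. Of these 7 genes, 2 were called higher in null at day 8, with a median log2 fold change of 1.55. At day 14 the number was 0, with a median of 0.54. Over all genes tested, 0.506% were called higher in null at day 8 and 0.259% at day 14. The 8 cardiomyocyte genes summed to 57.6 to 105 CPM in null cultures and 2060 to 2510 CPM in wild type cultures at day 8, and to 169 to 243 CPM in null cultures and 888 to 1000 CPM in wild type cultures at day 14. Nkx2-5, a transcription factor that defines cardiac cells, had 0 counts in every null library, and Myl7, an atrial myosin light chain, had 0 in the null libraries of day 8. Both were also at 0 in wild type ES cells, and neither was at 0 in the wild type groups of days 8 and 14. Of the 8 genes, 7 passed the filter on low counts. The 5 germ cell genes summed to 56.8 to 109 CPM in null cultures and 1.97 to 2.24 CPM in wild type cultures at day 8, and the 5 trophoblast genes to 86.6 to 126 CPM in null cultures and 5.75 to 10.7 CPM in wild type cultures at that day. The 5 fibroblast and matrix genes summed to 3810 to 6740 CPM in null and 7180 to 8490 CPM in wild type at day 8. At day 14 they summed to 8450 to 8610 CPM in null and 7300 to 7700 CPM in wild type cultures. None of them was called at either day. The genotypes compared at days 8 and 14 thus differ in several of these marker sums. In these bulk samples fewer cells of a type and less RNA per cell cannot be told apart. The part of these marker differences in the values below was not tested.

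Rybp, the gene the null cells lack, was nearly absent from null libraries at all 3 days. It had 3 counts in null ES cells and 231 in wild type ES cells. At day 8 it had 2 and 1 counts in null and 120 and 153 in wild type cultures, and at day 14 it had 4 and 2 counts in null and 64 and 92 in wild type cultures. Every null library lay below every wild type library, so the counts follow the labels of all 10 libraries.

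As ratios of pooled counts over library totals, wild type stood above null by 155-fold at day 0 (95% counting interval 52.4 to 758), by 105-fold at day 8 (35.6 to 513) and by 27.2-fold at day 14 (12.2 to 75.1). Such intervals cover counting error only. Rybp passed edgeR's quasi-likelihood test with Benjamini-Hochberg adjustment at day 8 (adjusted p = 1.93e-05, n = 2 each) and at day 14 (adjusted p = 0.000338, n = 2 each), where its log2 fold change, null over wild type, was −4.71 (SE 0.43). With Rybp-ps, 2 of the 5 genes passed at each day. Over all genes tested, 1.26% passed at day 8 and 0.613% at day 14, and since 1 of the 2 is the targeted gene and the other its copy, these counts only check the labels.

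Rybp-ps showed the same picture as Rybp. It had 3 counts in null and 172 in wild type ES cells. At day 8 it had 0 and 1 counts in null and 77 and 76 in wild type cultures, and at day 14 it had 0 and 1 counts in null and 49 and 34 in wild type cultures. No null library overlapped a wild type library.

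Pooled over a day, wild type stood above null for Rybp-ps by 116-fold at day 0 (38.9 to 566), by 177-fold at day 8 (31.2 to 7024) and by 86.7-fold at day 14 (15.1 to 3463). It passed edgeR's quasi-likelihood test at day 8 (adjusted p = 0.000496, n = 2 each) and at day 14 (adjusted p = 0.00423, n = 2 each). Rybp-ps lies on a different chromosome from the targeted gene, and its level followed that of Rybp over the 10 libraries, with r = 0.984 for log2(CPM + 1), a description of libraries that share their groups. In wild type libraries the copy held between 27.0% and 43.4% of the counts of both IDs. The exact 95% binomial interval was 37.8 to 47.7% at day 0, where its share was 42.7%, and it was 19.5 to 35.6% in the day 14 library with the lowest share. How reads that fit both genes were counted is not given in the sources used here, so the Rybp-ps counts cannot be told apart from Rybp reads.

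**Figure D1:**
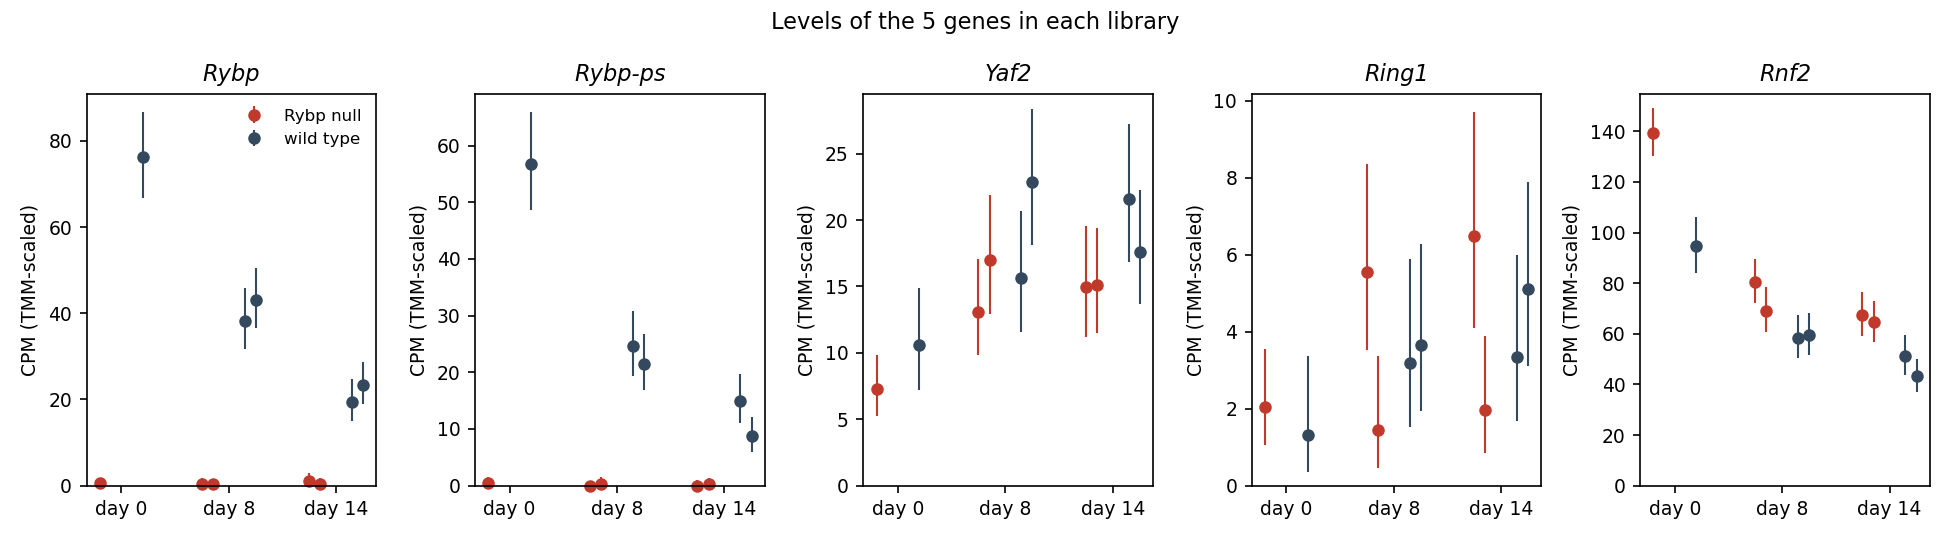
TMM-scaled CPM of the 5 genes in each of the 10 libraries, with null libraries left of wild type ones at each day and bars for the exact 95% Poisson interval of the count. Rybp and Rybp-ps lie near 0 in every null library, Rnf2 lies higher in null than in wild type libraries at each day, and the Ring1 libraries overlap at days 8 and 14.

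In wild type cells, Rybp was highest in ES cells and lower at each later day. It stood at 76.2 CPM at day 0, at 40.7 ± 3.39 CPM at day 8 and at 21.5 ± 2.84 CPM at day 14 (SD, n = 2 at the later days), and the libraries of the 3 days did not overlap. Rybp was lower at day 14 than at day 0 by a log2 fold change of −1.82 (SE 0.33, edgeR adjusted p = 0.000728), and lower at day 8 than at day 0 by −0.90 (SE 0.32, edgeR adjusted p = 0.0413). Among all genes tested in wild type cells, 44.9% passed for day 14 against day 0 and 40.5% for day 8 against day 0, so passing these comparisons is common. Between day 14 and day 8, where 4.04% of genes passed, the Rybp log2 fold change of −0.92 (SE 0.28) did not pass, with edgeR adjusted p = 0.0997. The day 8 call was lost in 7 alternatives, among them DESeq2 (adjusted p = 0.136) and scaling by library totals (log2 −0.69, adjusted p = 0.107), and it was lost without wild type replicate 1 or 2 of day 8 (adjusted p 0.167 and 0.103) and without wild type replicate 1 or 2 of day 14 (0.0578 and 0.0587). Rybp-ps fell with differentiation as well, by a log2 fold change of −2.27 (SE 0.44, edgeR adjusted p = 0.00126) for day 14 against day 0, and of −1.30 (SE 0.43, edgeR adjusted p = 0.0296) for day 8 against day 0. The day 8 call was lost by library totals (log2 −1.09, adjusted p = 0.0632), under DESeq2 (0.0963) and without wild type replicate 1 or 2 of day 8 (0.0898 and 0.132). In null cells both genes had at most 6 counts per day, too few for a fold between days. Values fitted between days in null cells appear only among the alternatives at the end.

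Yaf2, the paralog that can take the place of RYBP in variant PRC1, had a lower mean in null than in wild type cells at each of the 3 days, and the difference passed no test. Null ES cells had 7.28 CPM and wild type ES cells 10.6 CPM. At day 8 it had 13.1 and 17.0 CPM in null cultures, against 15.6 and 22.8 CPM in wild type cultures, and at day 14 it had 14.9 and 15.1 CPM in null cultures, against 21.6 and 17.6 CPM in wild type cultures. The groups overlapped at day 8, and at day 14 both null libraries lay below both wild type libraries.

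The Yaf2 log2 fold change, null over wild type, was −0.36 at day 8 (SE 0.32, 95% interval −1.05 to 0.32, edgeR adjusted p = 0.681, n = 2 each). At day 14 it was −0.38 (SE 0.31, 95% interval −1.07 to 0.30, edgeR adjusted p = 0.702, n = 2 each). Averaged over both days it was −0.37 (SE 0.22, 95% interval −0.86 to 0.11, edgeR adjusted p = 0.409), a fold of 0.772 with an interval of 0.552 to 1.08. A rise above 1.08-fold lies outside that interval, and a fall to 0.552 of the wild type level lies at its edge. Under the 15 alternatives the value over both days was between −0.49 and −0.22. Single libraries moved the values of each day more. The day 8 value was −0.61 without wild type replicate 1, −0.0643 without wild type replicate 2, −0.19 without null replicate 1 and −0.56 without null replicate 2 of that day. The day 14 value was −0.23 without wild type replicate 1 and −0.52 without wild type replicate 2 of that day, and none of these passed. At day 0, with no replicates, the null over wild type ratio was 0.689 with a 95% counting interval of 0.426 to 1.13. For pooled counts this interval was 0.588 to 0.989 at day 8 and 0.598 to 0.996 at day 14. Both lie below 1, but they leave out the spread between replicates.

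Along differentiation Yaf2 went the other way from Rybp in the values, though it did not pass. For day 8 against day 0 its log2 fold change was 1.04 in null (SE 0.41, edgeR adjusted p = 0.0624) and 0.87 in wild type cells (SE 0.42, edgeR adjusted p = 0.115). Scaling by library totals moved the null value to 1.28, which passed (adjusted p = 0.0284). For day 14 against day 0 it was 1.04 in null (SE 0.41, edgeR adjusted p = 0.0530) and 0.89 in wild type cells (SE 0.42, edgeR adjusted p = 0.0995). By library totals these 2 values were 1.33 and 1.12 and both passed (adjusted p 0.0192 and 0.0464), and the null one also passed without null replicate 1 or 2 of day 8 (0.0411 and 0.0443). Between day 14 and day 8 the Yaf2 value was 0.00 in null and 0.02 in wild type cells (SE 0.32 and 0.31).

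Levels of different genes are set side by side per kilobase of exon, which assumes that reads cover the exons evenly. By this measure the order of the paralogs changed along wild type differentiation. Rybp stood at 16.1 CPM per kb and Yaf2 at 5.64 CPM per kb in wild type ES cells, a Rybp over Yaf2 ratio of 2.85 (95% counting interval 1.97 to 4.27). The ratio was 0.746 and 0.968 in the wild type libraries of day 8 and 0.356 and 0.527 in those of day 14. By its own counts Rybp was thus above Yaf2 in wild type ES cells, close to it at day 8, where the pooled interval was 0.671 to 1.03, and below it at day 14, where it was 0.348 to 0.557. In null cells Yaf2 stood at 3.89, 8.02 ± 1.48 and 8.01 ± 0.06 CPM per kb at days 0, 8 and 14 (SD, n = 2 at the later days), against at most 0.171 CPM per kb for Rybp on average. Exon lengths are those of GENCODE vM21, and the annotation the authors counted on is not given in the sources used here. Counts placed at Rybp-ps are not in the Rybp level. Over its 681 bases Rybp-ps stood at 83.3 CPM per kb in wild type ES cells, above Rybp. Whether reads cover the Rybp exons evenly was not tested, so the order against Yaf2 depends on the length used. With them added to Rybp, an alternative chosen after seeing the data, the pooled ratio to Yaf2 in wild type cells was 4.98 at day 0 (95% counting interval 3.47 to 7.37), 1.29 at day 8 (1.06 to 1.59) and 0.675 at day 14 (0.545 to 0.837). The order at days 0 and 14 was the same either way, and at day 8 it turned, with the summed level above Yaf2 in both wild type libraries (1.12 and 1.59).

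**Figure D2:**
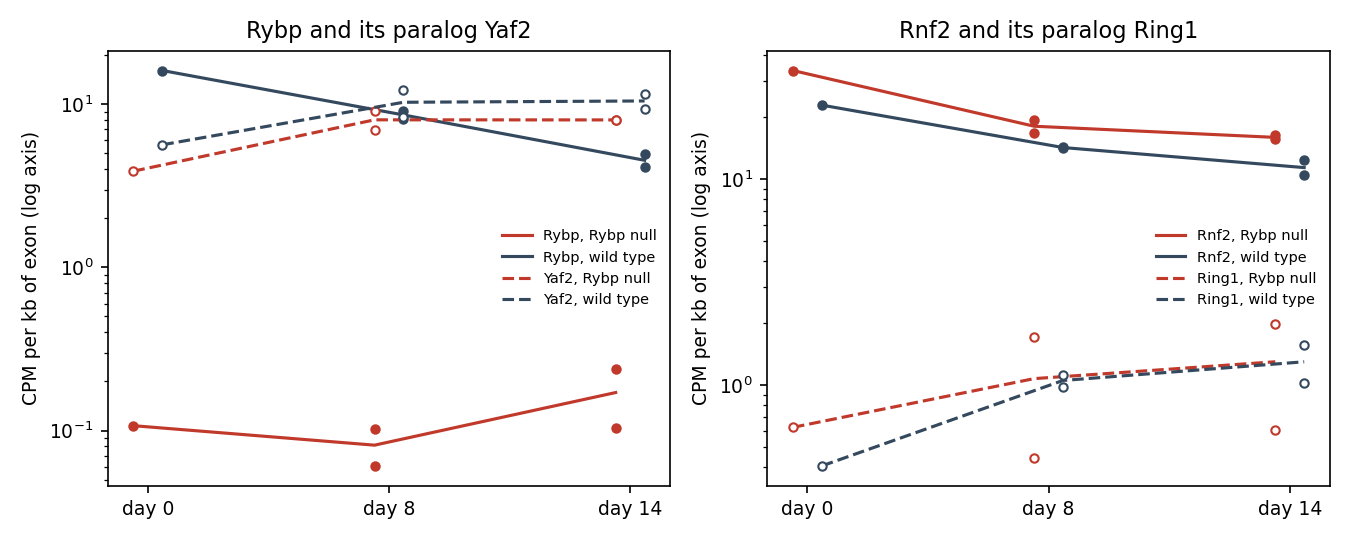
CPM per kb of exon on a log axis at days 0, 8 and 14 for Rybp with Yaf2 and for Rnf2 with Ring1, null in red and wild type in dark blue, points for libraries and lines through the means. In wild type cells Rybp lies above Yaf2 at day 0 and below it at day 14, and Rnf2 lies above Ring1 in every library.

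Rnf2, the RING1B ligase, was the higher of both ligase genes and had higher values in null than in wild type libraries at each day. Null ES cells had 139 CPM and wild type ES cells 94.7 CPM. At day 8 it had 80.5 and 69.1 CPM in null cultures, against 58.5 and 59.5 CPM in wild type cultures, and at day 14 it had 67.6 and 64.5 CPM in null cultures, against 51.1 and 43.1 CPM in wild type cultures. At each day every null library lay above every wild type library.

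These differences did not pass the test over all genes. The Rnf2 log2 fold change, null over wild type, was 0.34 at day 8 (SE 0.19, 95% interval −0.08 to 0.77, edgeR adjusted p = 0.484, n = 2 each). It was 0.49 at day 14 (SE 0.20, 95% interval 0.06 to 0.92, edgeR adjusted p = 0.307, n = 2 each). Over both days it was 0.42 (SE 0.14, 95% interval 0.12 to 0.72), a fold of 1.33 (1.08 to 1.64), with an unadjusted p of 0.0106 and an adjusted p of 0.117 in edgeR's test, in which 4.41% of all genes passed. Under the 15 alternatives the value over both days stayed between 0.35 and 0.48 and the adjusted p between 0.0628 and 0.364, while the day 8 value was 0.22 without null replicate 1 of that day. The summed pluripotency genes, which like Rnf2 were highest in ES cells, were also higher in the null libraries of day 8, as given above, and their part in the Rnf2 value was not tested. At day 0 the ratio of the 2 libraries was 1.47, with a 95% counting interval of 1.29 to 1.69. Rnf2 was thus not among the 8% of 10865 genes, with 5 CPM in either library, that were at least 2-fold higher in null.

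Rnf2 lies on chromosome 1, whose genes as a whole had higher values in null libraries. The median log2 fold change of the 906 chromosome 1 genes tested was 0.42 at day 8 and 0.41 at day 14, against 0.00 and −0.04 on the other autosomes. At day 0 the median of 639 chromosome 1 genes was 0.56, against 0.02 on the other autosomes, and Rnf2 was at 0.56. Of the chromosome 1 genes, 50.1% lay above Rnf2 at day 0, 56.7% at day 8 and 43.9% at day 14, so Rnf2 sat near the middle of its chromosome at all 3 days. Of the 10 tested genes that neighbour Rnf2 in the annotation, 9 had positive values at day 8 and all 10 at day 14, with medians of 0.38 and 0.60. Whether the difference in Rnf2 comes with that of its chromosome was not tested.

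The gene Trmt1l, a tRNA methyltransferase-like gene, overlaps Rnf2 on the opposite strand, and the longest overlap between single exons is 158 bases. It had 51.5 and 59.0 CPM in null cultures, against 28.4 and 27.1 CPM in wild type cultures, both at day 8, with a log2 fold change over both days of 0.85 (SE 0.16, edgeR adjusted p = 0.0107). Whether the counting used strand is not given in the sources used here, so reads of the shared bases cannot be told apart.

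**Figure D3:**
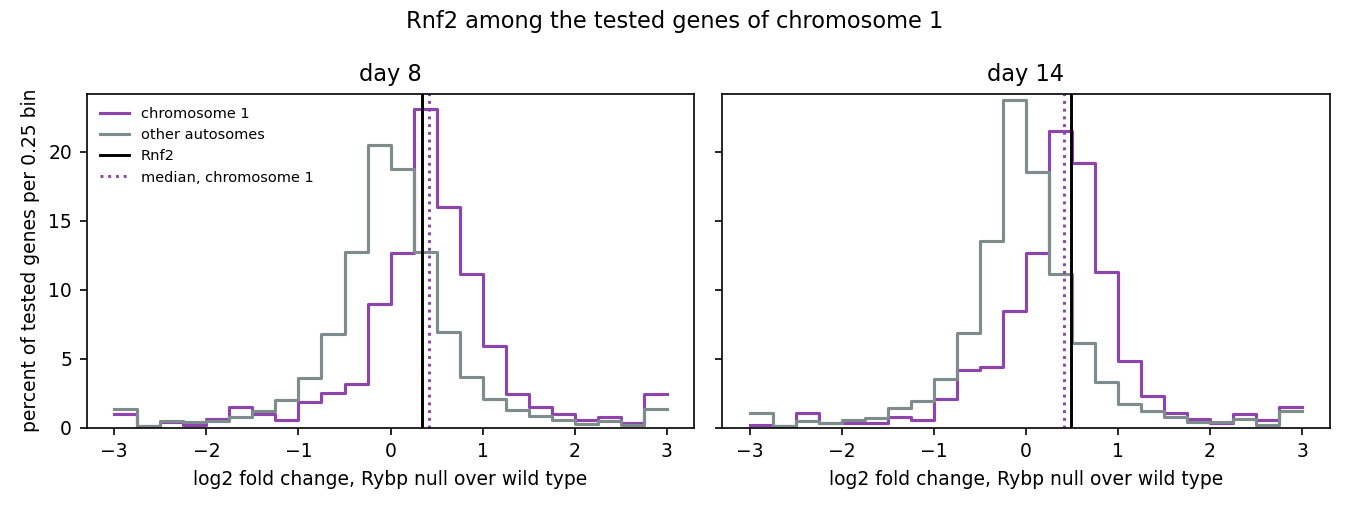
Share of tested genes per 0.25 bin of log2 fold change, null over wild type, for chromosome 1 and for the other autosomes at days 8 and 14, with values beyond 3 in either direction gathered in the end bins. The black line for Rnf2 lies next to the dotted chromosome 1 median of 0.42 at day 8 and 0.41 at day 14.

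Rnf2 fell with differentiation in both genotypes. For day 8 against day 0 its log2 fold change was −0.90 in null (SE 0.23, edgeR adjusted p = 0.00782), where 37.7% of all genes passed, and −0.68 in wild type cells (SE 0.23, edgeR adjusted p = 0.0338). For day 14 against day 0 it was −1.08 in null (SE 0.22, edgeR adjusted p = 0.00195), where 46.3% of all genes passed, and −1.01 in wild type cells (SE 0.23, edgeR adjusted p = 0.00401). Between day 14 and day 8 it was −0.18 in null (SE 0.19, adjusted p = 0.660), where 7.69% of all genes passed, and −0.33 in wild type cells (SE 0.20, adjusted p = 0.467), in edgeR's test. The wild type call at day 8 was lost by library totals (log2 −0.47, adjusted p = 0.132), under DESeq2 (0.0547), with no filter on low counts (0.0781) and without wild type replicate 1 or 2 of day 8 (0.119 and 0.107). The day 0 libraries have no replicate and are assumed to vary like the others.

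Ring1, the RING1A ligase, had the lowest level per kilobase of the members in wild type libraries, and its counts were low. It had 12 counts in null and 4 in wild type ES cells. At day 8 it had 23 and 5 counts in null and 10 and 13 in wild type cultures, and at day 14 it had 23 and 8 counts in null and 11 and 20 in wild type cultures. At both later days the 2 null libraries lay on either side of the wild type libraries, with replicate 1 high and replicate 2 low.

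The Ring1 log2 fold change, null over wild type, was 0.05 at day 8 (SE 0.73, 95% interval −1.53 to 1.63, edgeR adjusted p = 0.997, n = 2 each). At day 14 it was −0.03 (SE 0.70, 95% interval −1.55 to 1.49, edgeR adjusted p = 1, n = 2 each). Over both days the fold was 1.01, with an interval of 0.472 to 2.16, so the fitted interval holds a 2-fold change in either direction. The 95% counting intervals of the pooled ratio, which leave out the spread between replicates, were narrower, at 0.594 to 1.94 at day 8 and 0.558 to 1.61 at day 14. The sign changed with the library left out. Without null replicate 1 the day 8 value was −1.24, and without null replicate 2 the day 14 value was 0.60, neither of which passed. Ring1 passed in none of the comparisons between days, where its log2 fold change for day 14 against day 0 was 1.03 in null (SE 0.90) and 1.66 in wild type cells (SE 1.07). At day 0 the null over wild type ratio was 1.54 (95% counting interval 0.466 to 6.55).

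**Figure D4:**
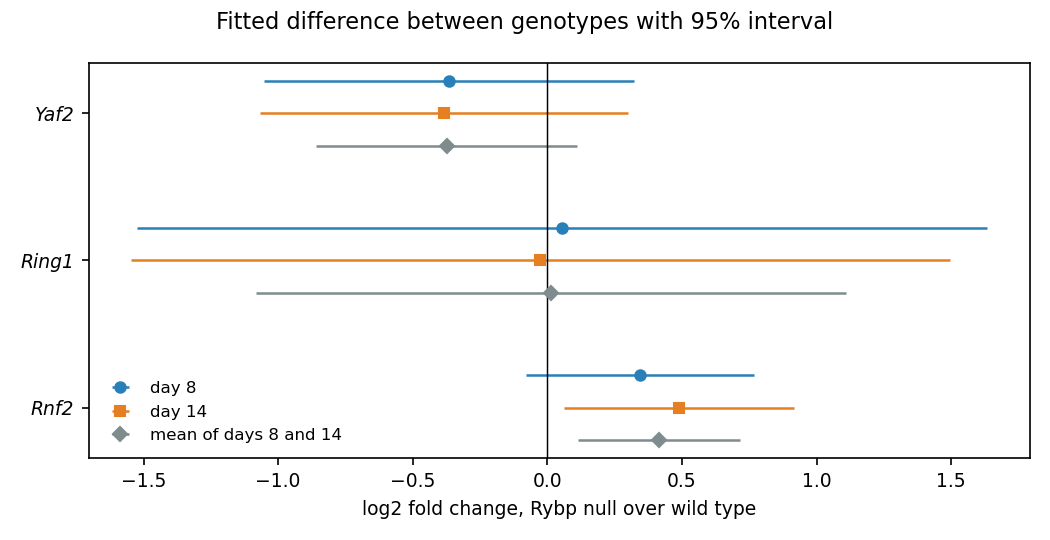
Fitted log2 fold change, null over wild type, of Yaf2, Ring1 and Rnf2 with 95% intervals at day 8, at day 14 and over both days. Yaf2 lies below 0 with intervals that cross it, Rnf2 lies above 0, and the Ring1 intervals are the widest.

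Per kilobase, Rnf2 stood far above Ring1 in every library. Rnf2 had 33.8, 18.1 ± 1.96 and 16.0 ± 0.52 CPM per kb in null cells at days 0, 8 and 14, and 22.9, 14.3 ± 0.18 and 11.4 ± 1.37 CPM per kb in wild type cells (SD, n = 2 at the later days). Ring1 had 0.626, 1.08 ± 0.90 and 1.30 ± 0.98 CPM per kb in null cells, and 0.407, 1.06 ± 0.10 and 1.30 ± 0.38 CPM per kb in wild type cells. The Rnf2 over Ring1 ratio at day 0 was 53.9 in null and 56.4 in wild type cells, with 95% counting intervals for pooled counts of 30.7 to 105 and 21.8 to 208. At day 8 it was 11.4 and 37.7 in the null and 12.8 and 14.4 in the wild type libraries, and at day 14 it was 8.20 and 25.6 in the null and 6.64 and 12.0 in the wild type libraries. The values were lower at both later days than at day 0 in each genotype, and the genotypes overlapped at days 8 and 14. The day 0 ratios rest on single libraries, with 12 Ring1 counts in null and 4 in wild type cells. The null value of 37.7 at day 8 lies within the null interval of day 0, and no test was run on the ratio.

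No gene passed for the genotype by day interaction, which asks whether the null over wild type difference itself changed between day 8 and day 14, in edgeR's test, where 962 genes had an unadjusted p under 0.05 and DESeq2 called 8. For Rnf2 the interaction was 0.14 (SE 0.28) and for Yaf2 −0.02 (SE 0.45), both on the log2 scale. For Rybp it was 1.87 (SE 0.85, edgeR adjusted p = 0.817), resting on 3 null counts at day 8 and 6 at day 14. The smaller Rybp ratio at day 14 is thus not a tested change.

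Other Polycomb genes, taken from lists of complex subunits and partners, passed the test between genotypes in few cases. All 65 listed genes passed the filter. At day 8, 2 were higher in null, 0 were lower and 63 did not pass, where 0.506% of all genes tested were higher and 0.759% lower. Their median log2 fold change was 0.21, against 0.01 over all genes tested. At day 14 none of the 65 passed by edgeR, where 0.259% of all genes were higher and 0.354% lower, and their median was 0.08, against −0.01 over all genes tested. At that day DESeq2 called 1 of the 65, Usp21, and 2038 of all genes had an unadjusted p under 0.05. Over both days 4 of the 65 were higher and 1 was lower, where 2.33% of all genes tested were higher and 2.08% lower.

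Among the 6 PCGF genes, which encode the partners of the RING1 proteins in the PRC1 core, none passed at either day. At day 8 Pcgf1, the PCGF subunit of the BCOR complex, had 9 and 11 counts in null and 5 and 1 in wild type cultures, a log2 fold change of 1.51 (SE 0.91, edgeR adjusted p = 0.519). The log2 fold changes of the PCGF genes lay between −0.05 and 1.51 at day 8 and between −0.24 and 0.42 at day 14, where Pcgf5 was the highest.

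Of the 21 partners of variant PRC1, 1 was higher at day 8 and 20 did not pass. Bcor, the corepressor that scaffolds the PCGF1 form of the complex with RYBP or YAF2, had 115 and 138 CPM in null cultures, against 55.3 and 62.0 CPM in wild type cultures at day 8. Both null libraries lay above both wild type libraries, for which no share over all genes is given. The log2 fold change was 1.11 (SE 0.23, edgeR adjusted p = 0.0379). At day 14 Bcor had 112 and 73.9 CPM in null cultures, against 61.1 and 55.7 CPM in wild type cultures, a log2 fold change of 0.67 (SE 0.23, edgeR adjusted p = 0.223) that was 0.34 without null replicate 1 and 0.93 without null replicate 2 of that day. Over both days it was 0.89 (SE 0.16, edgeR adjusted p = 0.0106), a call lost without wild type replicate 1 of day 8 (0.0778) or wild type replicate 2 of day 14 (0.0703). Null ES cells had 28.6 CPM of Bcor and wild type ES cells 28.4 CPM. Bcor lies on the X chromosome, and the Y chromosome gene Uty, given below, was lower in null libraries. Whether the Bcor difference comes with one in the sex chromosomes was not tested. The day 8 call was lost without wild type replicate 1 or 2 of day 8 (adjusted p 0.398 and 0.203), without wild type replicate 1 or 2 of day 14 (0.0747 and 0.0752) and without null replicate 2 of day 8 (0.0691), with a log2 fold change between 0.97 and 1.19. The next by size at day 8 were Wdr5, a subunit of the PCGF6 form, at 0.83 (SE 0.24, adjusted p = 0.136), and Cbx3, a heterochromatin protein of the same form, at 0.76 (SE 0.23, adjusted p = 0.154), neither of which passed in edgeR's test.

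None of the 10 canonical PRC1 genes passed at day 8 or at day 14. Cbx7, the chromobox subunit of canonical PRC1 in ES cells, had 8.95 and 14.1 CPM in null cultures, against 5.11 and 5.07 CPM in wild type cultures, both at day 8, with a log2 fold change of 1.16 (SE 0.41, edgeR adjusted p = 0.217). Scmh1, a gene of the Scm family, was lower over both days by a log2 fold change of −0.52 (SE 0.13, edgeR adjusted p = 0.0427), and this call was lost without any single library of days 8 and 14 other than null replicate 2 of day 8 (adjusted p up to 0.185), by library totals (0.0502) and with TMM factors taken outside chromosomes 1, 6, 8, 14 and Y (0.0588).

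Of the 11 PRC2 genes, the complex that methylates histone H3, none passed at either day. Aebp2, an accessory subunit on chromosome 6, was higher over both days by 0.47 (SE 0.11, edgeR adjusted p = 0.0293), a call lost without any single wild type library of days 8 and 14 (adjusted p up to 0.163) and without null replicate 1 or 2 of day 14 (0.0512 and 0.0747). The median of chromosome 6 genes at day 8 was 0.22, against 0.01 on the other autosomes. Phf19, a Polycomb-like accessory subunit, had 4.79 and 2.22 CPM in null cultures, against 8.82 and 9.44 CPM in wild type cultures, both at day 14, with a log2 fold change of −1.39 (SE 0.50, edgeR adjusted p = 0.245).

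Of the 8 genes listed for removing from H2A the ubiquitin that the RING1 proteins set, 1 was higher at day 8. The list includes Asxl1 and Asxl2, which encode cofactors of the enzyme BAP1. Of all genes tested, 0.506% were higher at that day. Usp21 had 84.1 and 61.0 CPM in null cultures, against 31.3 and 35.5 CPM in wild type cultures at day 8, and 62.5 and 80.8 CPM in null cultures, against 30.4 and 35.7 CPM in wild type cultures at day 14. Every null library lay above every wild type library, and the share of all genes with such a separation is not given. Its log2 fold change was 1.12 at day 8 (SE 0.24, edgeR adjusted p = 0.0477) and 1.11 at day 14 (SE 0.24, edgeR adjusted p = 0.0637), and over both days it was 1.12 (SE 0.17, edgeR adjusted p = 0.00412). The day 8 call was lost without wild type replicate 1 or 2 of day 8 (adjusted p 0.428 and 0.236), without wild type replicate 1 or 2 of day 14 (0.0880 and 0.0896) and without null replicate 1 of day 8 (0.136). With DESeq2 size factors in edgeR the adjusted p lay just above the threshold. At day 14 Usp21 passed under DESeq2 (adjusted p = 0.0288), with no filter on low counts (0.00181) and without null replicate 1 or 2 of day 8 (0.0242 and 0.0240). Null ES cells had 58.0 CPM of Usp21 and wild type ES cells 31.7 CPM. Usp21 lies on chromosome 1, as Rnf2 does, where the median at day 8 was 0.42 and the upper quartile 0.77. Of the 906 chromosome 1 genes tested, 32 were called higher at that day. Whether the Usp21 difference comes with that of its chromosome was not tested.

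Of the 9 genes for proteins that RYBP or YAF2 is known to bind outside PRC1, none passed at either day. Dedd, which encodes a death effector domain protein and lies on chromosome 1, was higher over both days by 0.58 (SE 0.14, edgeR adjusted p = 0.0361), a call lost without any single wild type library of days 8 and 14 (adjusted p up to 0.180) and without null replicate 1 or 2 of day 14 (0.0870 and 0.0609). Over both days 133 of the 906 chromosome 1 genes tested were called higher, and the chromosome 1 median was 0.44. Zfp42 (REX1), a pluripotency factor, had 4 and 14 counts in null and 1 and 2 in wild type cultures at day 8, and at day 14 it had 4 and 2 counts in null and 1 and 0 in wild type cultures. The wild type counts are too few for a fold.

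**Figure D5:**
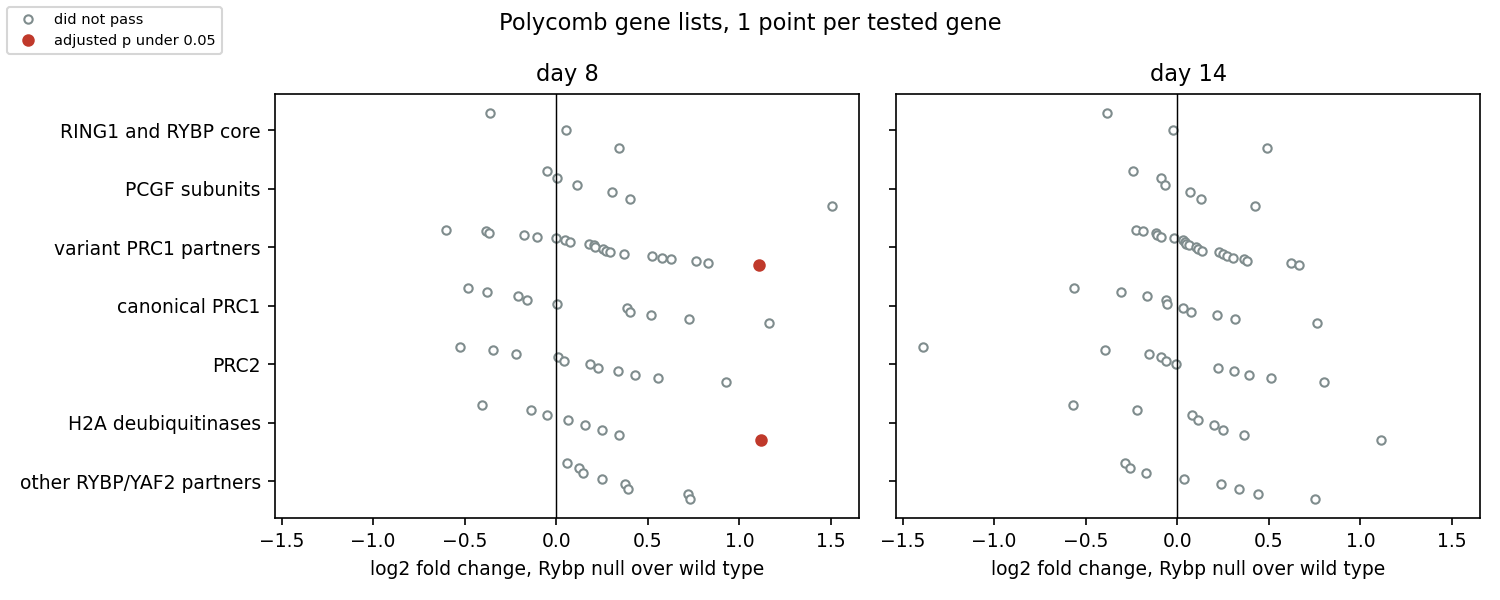
Log2 fold change, null over wild type, of Yaf2, Ring1, Rnf2 and the listed Polycomb and partner genes other than Zfp42 at days 8 and 14, 1 point per gene, filled where the adjusted p of edgeR's test was under 0.05. Bcor and Usp21 are the filled points at day 8, and there is none at day 14.

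The genes whose log2(CPM + 1) was most alike to each member over the 10 libraries are given as a description, since the libraries share their days and genotypes. For Rybp the nearest of 8751 genes was Uty (r = 0.963), with Ddx3y at 0.942, both on the Y chromosome. Uty had 6.94 CPM in null ES cells and 47.2 CPM in wild type ES cells, 4.11 and 4.89 CPM in null cultures, against 38.0 and 30.4 CPM in wild type cultures at day 8, and 4.79 and 6.43 CPM in null cultures, against 43.2 and 22.7 CPM in wild type cultures at day 14. No null library overlapped a wild type library, and the Uty log2 fold change was −2.92 at day 8 (SE 0.39, edgeR adjusted p = 0.00381). The others of the nearest 5 were Gm24895 (r = 0.943), Ldlrad3 (r = 0.902) and Nsa2 (r = 0.896).

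For Rnf2 the nearest genes were Mettl13 (r = 0.971), Gm22357 (0.966), Gm16433 (0.965), Xrcc5 (0.964) and Nucks1 (0.962), of which all but Gm16433 lie on chromosome 1. Xrcc5, a DNA repair gene, had a log2 fold change, null over wild type, of 0.83 at day 8 (SE 0.18, edgeR adjusted p = 0.0468). For Yaf2 they were Fcho2 (r = 0.960) and Ttc23 (0.959), and for Ring1 the nearest was Chmp2a, at r = 0.875. Between members, Yaf2 and Rnf2 had r = −0.893 and Ring1 and Rnf2 had r = −0.437 over the 10 libraries, which share genotypes and days.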

How the data were processed

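The 10 libraries were prepared with NuGEN kits from TRIzol-extracted RNA, per the labels' protocols. The authors deposited raw read counts for each Ensembl ID, as whole numbers. Per the submitters' processing notes, TopHat, HTSeq, DESeq and mm9 were used. Not given in the sources used here are their versions, the annotation, the strand setting and the treatment of reads that fit several places. Symbols, chromosomes, exon lengths and sequences came from GENCODE vM21 on GRCm38, so no coordinates are given.

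Counts were tested with edgeR 4.0.16 (R 4.3.3) after its filterByExpr at a minimum count of 10. Libraries were scaled by TMM, and a robust quasi-likelihood model with 1 coefficient per genotype and day was fitted to all 10 libraries, with 4 residual degrees of freedom and a common biological coefficient of variation of 0.214. Benjamini-Hochberg adjustment of the two-sided p ran over the 15819 genes, and calls were made under an adjusted p of 0.05. Standard errors are those implied by the test. At day 0, with 1 library per genotype, no test was run. Where a group held 1 to 3 counts, the pooled ratio is given with its 95% counting interval. Pooled ratios between genotypes used library totals for Rybp and Rybp-ps, and TMM-scaled library sizes for Yaf2, Ring1 and Rnf2. The script was tested on simulated data. DESeq2 1.42.0, other scalings, other filters and left-out libraries were alternatives.

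The 5 members and the gene lists were chosen with earlier results of these data known. Genes named from the lists are those that passed in a genotype comparison and examples from the up to 3 with the largest change per list at each day; the genes of most alike pattern are the 5 of highest Pearson correlation among genes with a mean of at least 10 CPM. Replicate numbers were not taken to pair libraries.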

Additional observations from a re-analysis of the deposited data

How the results depend on the processing

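Between genotypes at day 8, day 14 and over both days, Rybp and Rybp-ps passed and Yaf2, Ring1 and Rnf2 did not, under all 15 alternatives run for each and, for Rybp, also with its counts and those of Rybp-ps added, and Rnf2 stayed positive and Yaf2 negative. With 1 or 2 libraries a group, a total of 3028153 counts in the shallowest library and 4 residual degrees of freedom, the precision of all 3 is limited. With Rybp-ps counts added to Rybp, chosen after seeing the data, the mean Rybp over Yaf2 ratio in wild type cells was 4.97 at day 0, 1.35 at day 8 and 0.675 at day 14.

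The number of genes called, either direction, moved by more than 1.5 times in several alternatives. With no filter on low counts, which tests more genes, it was 708 at day 8, 637 at day 14, 1396 over both days, and 65 for the interaction. For day 14 against day 8 it was then 1892 in null and 1244 in wild type cells. DESeq2 called 202 at day 14 and 8 for the interaction, and the cause was not tested. Leaving out 1 library gave 28 to 324 genes at day 8, 14 to 301 at day 14, 183 to 1050 over both days, and 0 to 2 for the interaction. For day 14 against day 8 it gave 613 to 1243 in null and 108 to 935 in wild type cells.

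Values near 0 changed sign, none of them past the threshold, and the cause was not tested. By library totals the Ring1 log2 fold change at day 14 was 0.00336, the Yaf2 interaction 0.00912, the Usp21 interaction 0.0278 and the fitted Rybp-ps value for day 14 against day 8 in null cells 0.0335. With TMM factors taken outside chromosomes 1, 6, 8, 14 and Y the Ring1 value at day 14 was 0.0212. The Usp21 interaction was 0.0050 with DESeq2 size factors and 0.0051 with DESeq2, and with the 8 libraries of days 8 and 14 alone Yaf2 for day 14 against day 8 in null cells was −0.0015.

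Leaving out 1 library gave Ring1 log2 values of −1.24 to 0.69 at day 8, −1.09 to 0.60 at day 14, −0.63 to 0.33 over both days and −1.15 to 1.22 for the interaction. For day 8 against day 0 in null cells Ring1 gave −0.48 to 1.44, for day 14 against day 0 in null cells −0.0358 to 1.66, and for day 14 against day 8 −0.84 to 1.52 in null and −0.0369 to 0.57 in wild type cells. Yaf2 gave −0.32 to 0.22 for the interaction. For day 14 against day 8 it gave −0.18 to 0.20 in null and −0.22 to 0.32 in wild type cells. The interaction gave −1.35 to 3.31 for Rybp-ps, −0.22 to 0.25 for Usp21 and −0.22 to 0.0690 for Scmh1. In null cells, where counts are too few for a fold, the fitted values were −2.32 to 2.33 for Rybp-ps at day 14 against day 8 and −0.0342 to 1.10 for Rybp at day 14 against day 0.

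The labels do not say whether replicate numbers pair the libraries. Over 8582 genes the deviations of replicate 1 from its group mean correlated between −0.377 and 0.217 over the 6 pairs of groups. These correlations cannot show whether libraries shared a culture or batch. With the replicate number as a block in the 8 libraries of days 8 and 14, 138 genes were called at day 8, 74 at day 14 and 516 over both days, none of the 65 listed genes at day 8 and 2 of them over both days. Under the block Ring1 was −0.10 at day 8 and −0.15 over both days, and the fitted Rybp-ps value for day 14 against day 8 in null cells was 0.0141.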
